A study of Homo sapiens with 6 samples.

Results

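Endoglin (ENG) and 9 receptors of the transforming growth factor beta (TGF-beta) and bone morphogenetic protein (BMP) family, namely TGFBR1, TGFBR2, TGFBR3, ACVRL1, ACVR1, ACVR1B, ACVR2A, BMPR1A and BMPR2, were followed in A549 cells after silencing of the long noncoding RNA FAM83H-AS1. All 10 are rows of a table of 40173 genes, and all 10 were among the 15250 genes that passed the filter on low counts. The set was chosen by family around ENG, which was itself selected on its lower mRNA in these same libraries and on its place in the protein list of the study. The differences of the 10 receptors between the groups are therefore given as a description, with standard errors and without printed p-values. Where receptors are counted below by an adjusted p under 0.05, those counts are part of this description. A549 is an established human lung adenocarcinoma cell line. Control cells received a negative control and silenced cells an siRNA against FAM83H-AS1, with 3 libraries in each group, and all were harvested on the day after transfection. The labels do not say whether the libraries came from separate cultures, so the spread between them may be technical in part. Libraries were made from total RNA with an Ion Proton kit.

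Ligands of this family bring together type II and type I receptors, which are serine/threonine kinases of the cell surface. The type II receptor phosphorylates the type I receptor, which then phosphorylates SMAD proteins. TGFBR1 and ACVR1B act on SMAD2 and SMAD3, whereas ACVRL1, ACVR1 and BMPR1A act mainly on SMAD1, SMAD5 and SMAD9. ENG and TGFBR3 (betaglycan) bind ligand without a kinase of their own and present it to the kinase receptors. ENG and ACVRL1 are best known from the endothelium, where mutations of either gene cause hereditary hemorrhagic telangiectasia, and TGF-beta signaling in carcinoma cells is known for its part in the epithelial to mesenchymal transition.

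Library totals ranged from 9738291 to 17742643 counts. Control cells had 141, 185 and 292 reads of FAM83H-AS1 and silenced cells 47, 48 and 75, so that the target fell by 1.70 on the log2 scale (adjusted p = 7.99e-05 by edgeR, standard error 0.148). Control replicate 3 had 3.22% of its counts on the ribosomal pseudogene RNA5-8SP6, against 0.241% to 0.448% elsewhere. Of 8 markers fixed for A549 cells, KRT8, KRT18, KRT7 and AKR1C1 were abundant, while KRT19, CDH1, AKR1B10 and ALDH1A1 had at most 28 counts in any library. The cells are called A549 after their label, and their identity was not tested further. The summed level of these 8 markers was 4497 to 4854 CPM in control and 3641 to 3678 CPM in silenced libraries. For 10 endothelial markers the sums were 40.2 to 43.7 and 46.4 to 52.3 CPM, most of it from ESAM (log2 fold change 0.32). CDH5, with at most 75 counts, went the other way (-0.79) with overlapping groups, and VWF, with at most 32 counts, was at 0.11. PECAM1, KDR, TEK, TIE1, ERG, CLDN5 and EMCN had at most 3 counts in any library. The sums of 7 fibroblast markers were 3.37 to 6.27 and 5.28 to 9.37 CPM. For 5 leukocyte markers they were 124 to 141 and 225 to 254 CPM, nearly all from CD68, a lysosomal membrane protein, whereas PTPRC had at most 1 count and CD3E and LYZ had 0. The part of these markers in the differences below was not tested.

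A short sequence in the 3′-UTR of several receptors is shown first because later values refer to it. The 7-base word CCAATAA had been found in these same libraries to mark lower mRNAs, so its presence in a lower receptor is no independent observation. In GENCODE 29 on GRCh38, it lay in an annotated 3′-UTR of 4 of the 10 receptors, ENG, TGFBR2, BMPR1A and BMPR2, compared with 12.3% of the 11518 tested mRNAs that have one. This share is not matched for the length of the 3′-UTR, and a longer 3′-UTR has more places for any 7-base word. The word was searched on the transcript strand. Followed by an A, it holds AATAAA, the common polyadenylation signal. The sites are printed 5′ to 3′ with the word in capitals, read from the annotated transcripts.
ENG: tgtattcaccaCCAATAAatcagaccatg
TGFBR2: ttttacaatagCCAATAAcatttgcactt
BMPR1A: atggataatacCCAATAActtgttttttc
BMPR2: ccgaactaattCCAATAAcaacaacagca

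The ENG site lies at chr9:127815022-127815050 on the minus strand, where the word starts at base 878 of a 3′-UTR of 900 bases and ends 16 bases before the annotated end of the transcript. Among the 4 sites it alone is followed by an A and so contains the polyadenylation signal. In TGFBR2 (chr3:30691844-30691872, plus strand) the word starts at base 256 of 2543, and in BMPR1A (chr10:86925547-86925575, plus strand) at base 1839 of 9119. The BMPR2 site (chr2:202556359-202556387, plus strand) belongs to a shorter annotated transcript and is absent from the longest 3′-UTR of that gene. In the longest 3′-UTR of each gene, the word was in 3 receptors, ENG, TGFBR2 and BMPR1A, and in 11.3% of all these mRNAs. These 3 were also the receptors with a log2 fold change below 0, although the difference of BMPR1A was smaller than its standard error and changed sign without control replicate 3 (0.04) or silenced replicate 3 (0.03). Words that pair with bases 2 to 8 of the siRNA strands listed by the study were searched in the same way, for both strands of both siRNAs. AGATTAC was in 2 receptors (8.91% of all mRNAs), ATGTTCT in 2 (19.7%), TCAATAT in 1 (12.1%) and GAAAGAA in 4 (25.4%). None of these words was in a 3′-UTR of ENG or TGFBR2.

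**Figure D1:**
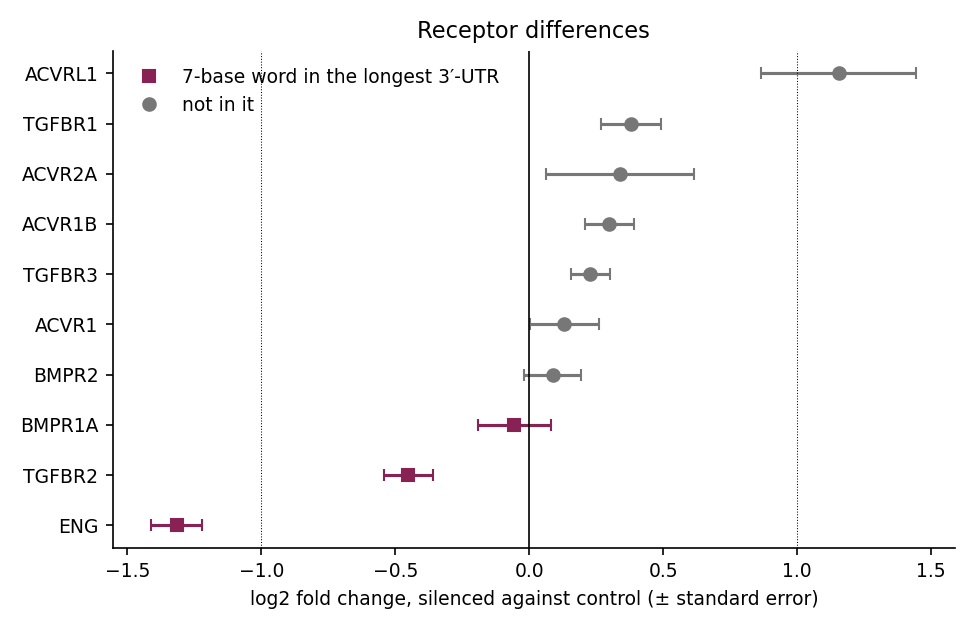
Log2 fold change of each receptor in silenced against control cells, with its standard error as bars and dotted lines at a fold change of 2 in either direction. Squares mark the receptors with the 7-base word in their longest 3′-UTR: ENG at -1.32, TGFBR2 at -0.45 and BMPR1A at -0.06, while the other 7 receptors (circles) lie between 0.09 and 1.16. BMPR2, drawn as a circle at 0.09, has the word in a shorter annotated transcript. The word had been found in these same libraries to mark lower mRNAs, so this split is no independent observation.

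Among the receptors, ENG was much lower after silencing, TGFBR2 was moderately lower, and ACVRL1 was about doubled from a low level. TGFBR1, ACVR1B and TGFBR3 were slightly higher, and ACVR1, BMPR1A and BMPR2 lay close to their control level. ACVR2A stood at 128% of control, but with few reads and overlapping groups. Taking an adjusted p under 0.05 by edgeR as the criterion, 3 of the 10 were higher (TGFBR1, ACVRL1 and ACVR1B), beside 8.75% of all tested genes, and 2 were lower (ENG and TGFBR2), beside 8.27%. With a fold change over 2 as well, 1 was higher (ACVRL1, beside 1.14% of all genes) and 1 lower (ENG, beside 0.997%). All silenced libraries lay above all control libraries for 5 receptors, beside 19.1% of all genes, and below them for 2, beside 17.5%. Because the set was built on this contrast, nothing is read from these counts. The median log2 fold change was 0.18 over the 10 receptors and -0.00 over all tested genes.

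ENG, the co-receptor of the endothelium, was the most abundant of the 10. Control libraries held 2033, 1904 and 3203 of its reads, and silenced libraries 749, 781 and 1083. As CPM, the count relative to the normalized library size, the levels were 209, 164 and 189 CPM in control and 73.1, 72.2 and 80.5 CPM in silenced libraries. The groups did not overlap, and the silenced libraries lay closer together than the control libraries. ENG stood at 188 ± 22.3 CPM in control and 75.3 ± 4.54 CPM in silenced cells (SD, n = 3 each), 40.1% of the control level, a log2 fold change of -1.32 (standard error 0.0956). In bulk RNA, less ENG mRNA per cell and fewer cells with ENG cannot be told apart. ENG is encoded on the minus strand of chromosome 9 from 127815012 to 127854756 (GRCh38), and 122 bases of its exons overlap AL162586.1, an antisense gene. Whether the counting used strand is not given in the sources used here.

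TGFBR3, the other co-receptor, went the opposite way. Its levels were 48.0, 45.8 and 46.8 CPM in control and 55.6, 56.2 and 53.0 CPM in silenced libraries. The groups did not overlap, but the difference was small, at 117% of the control level and 0.23 on the log2 scale (standard error 0.073). Within each library, the ratio of ENG counts to TGFBR3 counts does not depend on library size or normalization. This ratio, not scaled for gene length, was 3.997 ± 0.383 in control and 1.37 ± 0.127 in silenced libraries (SD, n = 3 each).

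**Figure D2:**
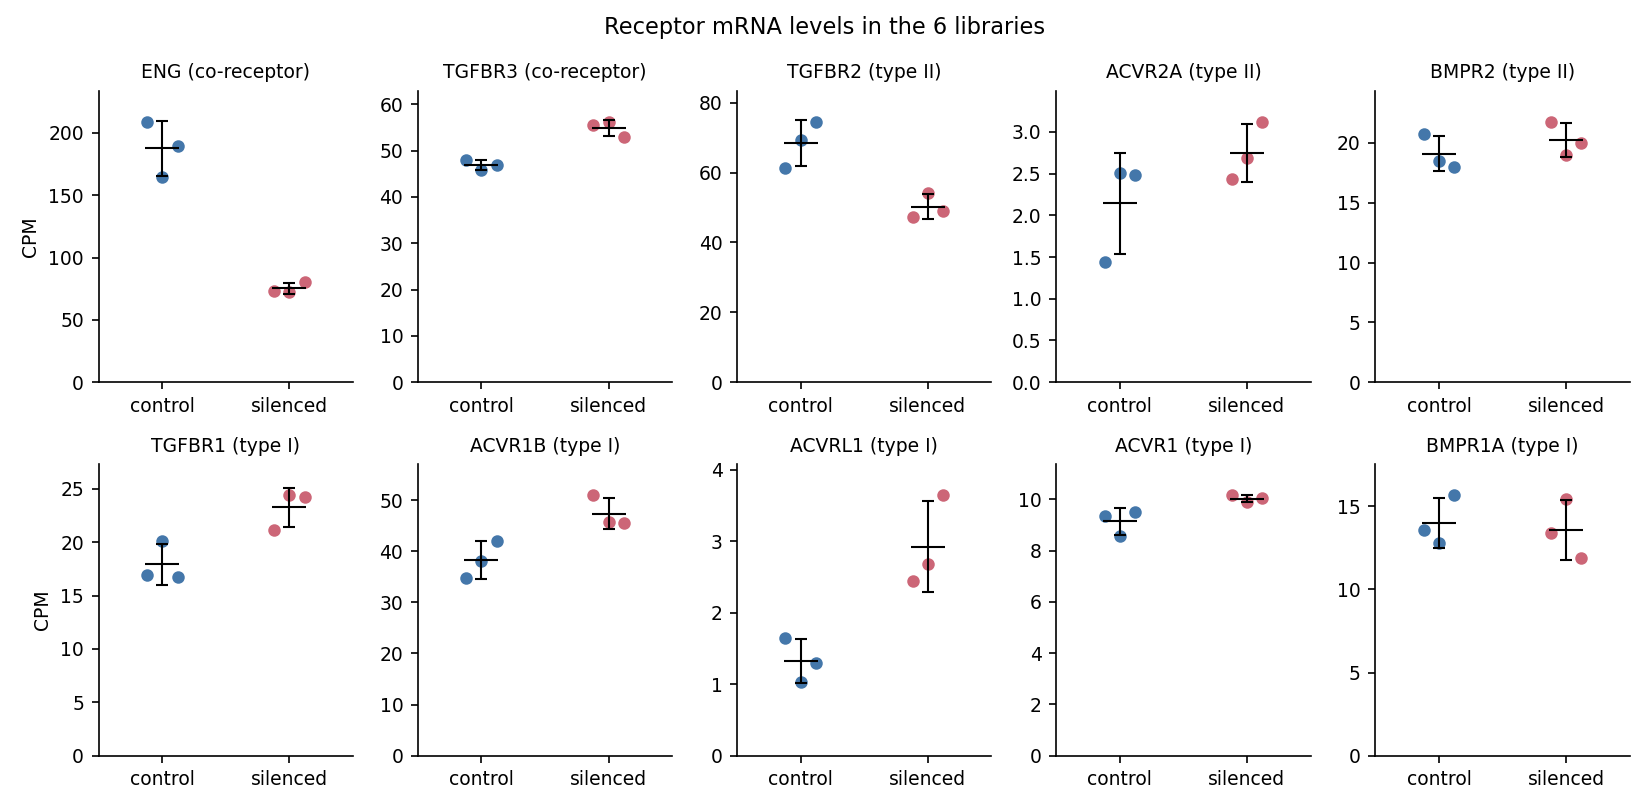
Normalized level (CPM) of each receptor in the 3 control and 3 silenced libraries; points are libraries, and the horizontal line and bars are the mean and SD. ENG and TGFBR2 have every silenced library below every control library, TGFBR1, TGFBR3, ACVRL1, ACVR1 and ACVR1B have every silenced library above, and ACVR2A, BMPR1A and BMPR2 overlap.

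Among the type II receptors, TGFBR2, which binds TGF-beta itself, was the most abundant. It had levels of 61.4, 69.4 and 74.6 CPM in control and 47.3, 54.2 and 49.1 CPM in silenced libraries. The groups were fully separate, and the silenced level was 73.3% of control (log2 fold change -0.45, standard error 0.0916). ACVR2A, a receptor for activins and BMPs, was rare, with counts between 14 and 42. Its levels of 1.44, 2.50 and 2.48 CPM in control and 2.44, 2.68 and 3.12 CPM in silenced libraries overlapped, and control replicate 1 was the lowest. The log2 fold change was 0.34 with a standard error of 0.276. Exons of ACVR2A share 430 bases with ORC4 on the opposite strand. BMPR2, the main type II receptor for BMPs, had levels of 20.8, 18.5 and 18.03 CPM in control and 21.8, 19.0 and 19.996 CPM in silenced libraries, which overlapped (log2 fold change 0.09, standard error 0.106).

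TGFBR1, the type I partner of TGFBR2, was higher after silencing while TGFBR2 was lower. Levels of TGFBR1 were 17.0, 20.1 and 16.7 CPM in control and 21.2, 24.4 and 24.2 CPM in silenced libraries. The groups did not overlap, with control replicate 2 and silenced replicate 1 closest to each other, and the log2 fold change was 0.38 (standard error 0.112). Counted within each library, TGFBR2 reads per TGFBR1 read were 3.62, 3.45 and 4.46 in control and 2.23, 2.22 and 2.02 in silenced libraries. ACVR1B, the activin type I receptor, stood at 34.7, 38.2 and 42.0 CPM in control and 51.0, 45.7 and 45.5 CPM in silenced libraries. It was at 124% of the control level (log2 fold change 0.30, standard error 0.0925), without overlap of the groups.

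ACVRL1, the type I receptor that signals with ENG in endothelial cells, was rare but differed most among the higher receptors. Its counts were 16, 12 and 22 in control and 25, 29 and 49 in silenced libraries. Normalized levels were 1.64, 1.04 and 1.30 CPM in control and 2.44, 2.68 and 3.64 CPM in silenced libraries, without overlap. The log2 fold change was 1.16 with a wide standard error of 0.289, and without silenced replicate 3 it was 0.95. ENG reads per ACVRL1 read, again not scaled for length, differed between the groups at 144 ± 15.9 in control and 26.3 ± 3.96 in silenced libraries (SD, n = 3 each). ACVR1, a BMP type I receptor, was at 9.36, 8.55 and 9.52 CPM in control and 10.2, 9.89 and 10.03 CPM in silenced libraries. These groups did not overlap either, yet the difference of 0.13 on the log2 scale was about as large as its standard error (0.13). BMPR1A, another BMP type I receptor, had levels of 13.6, 12.8 and 15.7 CPM in control and 13.4, 15.4 and 11.9 CPM in silenced libraries. The groups overlapped, and as BMPR1A has 2 annotated pseudogenes its counts may include reads of these copies.

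The criterion of an adjusted p under 0.05 depended on the setting for TGFBR1, ACVR1B, ACVRL1 and TGFBR3. TGFBR3 missed it in the main fit and met it in 2 of 12 alternatives, with library size only and with the replicate number as a block. TGFBR1 missed it in 6 of 12 alternatives, with DESeq2 and without any 1 library other than control replicate 2. ACVR1B missed it in 6 of 12, with DESeq2 and without any 1 library other than control replicate 3. ACVRL1 missed it in 3 of 12, without control replicate 2, control replicate 3 or silenced replicate 3, where its log2 fold change was 1.02, 1.15 and 0.95. Over the same alternatives the log2 fold change ranged from -1.40 to -1.23 for ENG and from -0.52 to -0.38 for TGFBR2. All values and calls of this paragraph are a description, because the receptors were chosen with results of this contrast known. How often a receptor met the criterion is therefore no test of it.

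The summed level of the 10 receptors was 405 ± 20.5 CPM in control and 301 ± 2.07 CPM in silenced cells (SD, n = 3 each). Without ENG the sum was 217 ± 9.65 and 225 ± 4.85 CPM, so that the net difference in the sum lay in ENG. The sum without ENG holds opposite differences: TGFBR2 and BMPR1A had a log2 fold change below 0, and 7 receptors had one above 0. Of all reads of these receptors, ENG took 50.1%, 43.1% and 45.5% in control cells, against 24.5%, 23.9% and 26.7% after silencing.

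**Figure D3:**
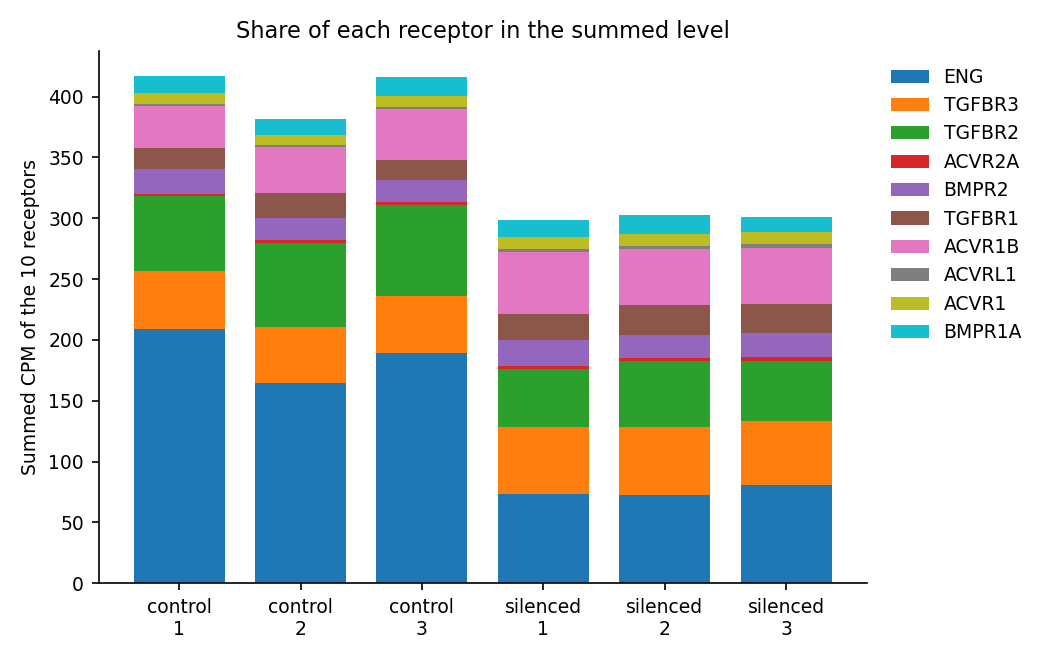
Stacked level (CPM) of the 10 receptors in each library, 1 bar per library and 1 color per receptor. The bars reach 381 to 417 CPM in control and 298 to 302 CPM in silenced libraries, and the ENG segment at the base shrinks from 164 to 209 CPM to 72.2 to 80.5 CPM.

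Compared per length of exons, ENG stood first in both groups, at 55.0 ± 6.55 CPM per kilobase in control and 22.1 ± 1.33 in silenced cells (SD, n = 3 each). TGFBR2 came second, at 14.6 ± 1.41 and 10.7 ± 0.764 CPM per kilobase. The order in control cells went on with ACVR1B (6.90), TGFBR3 (6.66), TGFBR1 (2.71), ACVR1 (2.59), BMPR2 (1.67), BMPR1A (1.25), ACVR2A (0.374) and ACVRL1 (0.302 CPM per kilobase). Neighbors in this order whose libraries overlapped were ACVR1B and TGFBR3, TGFBR1 and ACVR1, and ACVR2A and ACVRL1. In silenced cells the order was the same except for ACVRL1 (0.664), which stood above ACVR2A (0.480 CPM per kilobase), and no neighbors overlapped. The lengths count all exons annotated in the basic set of GENCODE 29, which may differ from what A549 cells use.

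**Figure D4:**
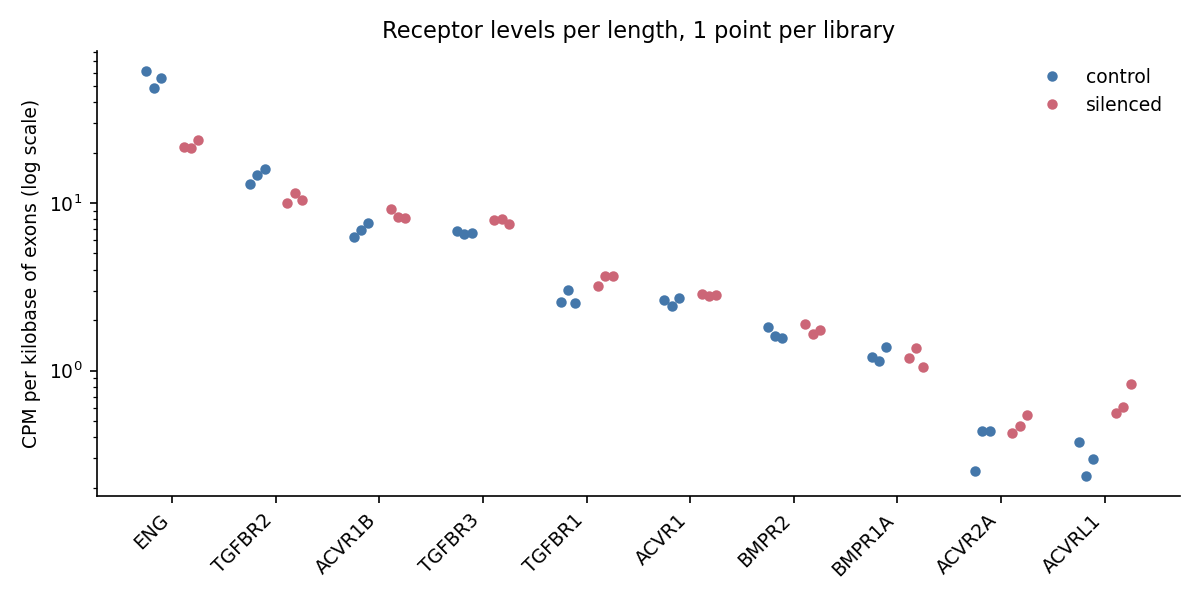
Level per length of exons (CPM per kilobase, logarithmic axis) of each receptor, ordered by the control mean, with 1 point per library. ENG and TGFBR2 lead in both groups, and ACVR2A and ACVRL1 are the lowest.

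Among the genes whose level over the 6 libraries was most like that of ENG, out of 12130 genes with a mean of at least 50 counts, were MTHFD1L (Pearson's r = 0.999), KANK2 (0.997), IDH3B (0.996) and PELP1 (0.996). The 6 points fall into the 2 groups of the study, so r mostly reflects that all 4 were lower after silencing, by 0.29, 0.29, 0.26 and 0.52 on the log2 scale in the same order, each less than ENG.

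Next, genes that act around the receptors were compared in lists of ligands, activators, antagonists, SMADs, regulators and targets, which contain none of the 10 receptors. The lists were chosen with earlier results of these data known, so their counts are no independent test. Of 138 listed genes, 96 could be tested, of which 17 rose and 6 fell with an adjusted p under 0.05 by edgeR, and 73 did not pass. Of all tested genes, 8.75% were higher and 8.27% lower by the same criterion, the background for each list that follows. Among the ligands, 3 of 14 tested rose (8.75% of all genes) and 0 fell (of 32 listed). INHBA, a subunit of the activins, had 0, 1 and 7 counts in control and 41, 55 and 76 in silenced libraries, so that it rose from nearly no reads (log2 fold change 4.53, standard error 0.493, adjusted p = 2.95e-04 by edgeR). The size of this change rests on the few control reads, since without control replicate 3 the log2 fold change was 6.41. INHBA passed the filter on low counts only through its silenced libraries, so the test could hardly have called it lower. BMP2 rose by 0.86 on the log2 scale (adjusted p = 0.00183 by edgeR), with 36.4 ± 6.82 CPM in control and 66.6 ± 8.15 CPM in silenced cells (SD, n = 3 each), and every silenced library lay above every control library. BMP8B rose by 0.73 on the log2 scale (adjusted p = 0.0158 by edgeR), although this call was lost without silenced replicate 2 (adjusted p = 0.0556). TGFB1, the ligand with the highest mean CPM, was at 113 ± 12.5 and 124 ± 16.2 CPM (SD, n = 3 each), which overlapped (adjusted p = 0.432 by edgeR).

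Among the secreted antagonists, 2 of 5 tested genes fell, beside 8.27% of all genes, and 0 rose. FSTL1, a follistatin-like glycoprotein, fell by 0.63 on the log2 scale (adjusted p = 0.00103 by edgeR), with 323 ± 16.3 CPM in control and 208 ± 22.4 CPM in silenced cells (SD, n = 3 each). FSTL3, which binds activins, fell by 0.49 on the log2 scale (adjusted p = 0.0387 by edgeR), a call lost without control replicate 1 or 2 or silenced replicate 1 or 2 (up to 0.136). Of 9 genes of ligand latency and activation, 3 fell and 1 rose, beside 8.27% and 8.75% of all genes. BMP1, a protease of the extracellular matrix, fell by 0.42 (adjusted p = 0.00551 by edgeR), THBS1, an activator of latent TGF-beta, fell by 0.44 (adjusted p = 0.0278 by edgeR), and the latent TGF-beta binding protein LTBP3 fell by 0.30 (adjusted p = 0.0315 by edgeR), whereas LTBP4 rose by 0.34 (adjusted p = 0.0129 by edgeR). FURIN, a protease that matures the ligands, had the highest CPM of this list as a mean over both groups and did not pass (log2 fold change -0.27, adjusted p = 0.117 by edgeR). It was at -0.37 without control replicate 2 (adjusted p = 0.0471) and at -0.13 without control replicate 1 (adjusted p = 0.351), and it passed among all genes with at least 1 count (adjusted p = 0.0157). The call of THBS1 was lost without control replicate 2 or 3 or silenced replicate 1 or 3 (adjusted p up to 0.11). That of LTBP3 was lost with library size only (adjusted p = 0.0503) and without any 1 library other than control replicate 2 (up to 0.115), and that of LTBP4 without control replicate 2 or silenced replicate 1 (up to 0.0644). The word CCAATAA was in a 3′-UTR of 3 of the 6 pathway genes that fell (THBS1, BMP1 and FSTL1), of 1 of the 17 that rose (ZEB2) and of 9 of the 73 that did not pass. Its share over all tested mRNAs with a 3′-UTR was 12.3%. Because the word had been found in these same libraries to mark lower mRNAs, nothing is read from these counts.

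Of the 7 tested SMADs, 1 rose and 1 fell, beside 8.75% and 8.27% of all genes. SMAD3, which carries signals of TGFBR1 and ACVR1B, was at 78.2, 81.8 and 94.4 CPM in control and 122, 121 and 122 CPM in silenced libraries and rose by 0.52 on the log2 scale (standard error 0.0834, adjusted p = 0.00258 by edgeR). SMAD6, an inhibitor of BMP signaling, fell by 0.41 (adjusted p = 0.0331 by edgeR), with an adjusted p of up to 0.0989 without control replicate 1 or 3 or silenced replicate 1 or 2. SMAD7, the inhibitor induced by TGF-beta, was at 19.8 ± 0.468 and 20.04 ± 3.28 CPM (SD, n = 3 each, adjusted p = 0.935 by edgeR). Among the 21 intracellular regulators, 1 rose (8.75% of all genes), the deubiquitinase USP15, by 0.39 (adjusted p = 0.0113 by edgeR, and 0.0519 without silenced replicate 1). FKBP1A, which binds type I receptors, had the highest mean CPM of them and did not pass (log2 fold change 0.12, adjusted p = 0.31 by edgeR). Of 5 other receptors and co-receptors that could be tested, CD109, a TGF-beta co-receptor, rose by 0.38 (adjusted p = 0.00987 by edgeR, and 0.0517 without silenced replicate 1).

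Of 8 genes for shedding and trafficking of these receptors, 2 rose, beside 8.75% of all genes, and 0 fell. CAV1, the coat protein of caveolae, rose by 1.03 on the log2 scale (adjusted p = 3.76e-04 by edgeR), with 13.3 ± 1.33 CPM in control and 27.0 ± 2.46 CPM in silenced cells (SD, n = 3 each). ARRB2, an arrestin in the uptake of co-receptors, rose by 0.37 (adjusted p = 0.00659 by edgeR). GIPC1, which binds the tails of ENG and TGFBR3, was at 188 ± 11.3 and 186 ± 4.29 CPM (SD, n = 3 each, adjusted p = 0.932 by edgeR).

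Of 20 tested TGF-beta targets, 8 rose and 0 fell, beside 8.75% and 8.27% of all tested genes, with a median log2 fold change of 0.24, compared with -0.00 over all tested genes. SNAI2, a repressor of epithelial genes, rose by 0.80 (adjusted p = 0.00485 by edgeR), and the cell cycle inhibitor CDKN1A by 0.68 (adjusted p = 0.0018 by edgeR). CYR61, a matricellular protein, rose by 0.56 (adjusted p = 8.82e-04 by edgeR) and COL4A1, a chain of basement membrane collagen, by 0.48 (adjusted p = 0.00339 by edgeR). ZEB2, another repressor of epithelial genes, had few reads, with 14, 21 and 32 in control and 33, 46 and 35 in silenced libraries. It rose from 1.72 to 3.36 CPM (adjusted p = 0.0376 by edgeR), a call lost with DESeq2 (adjusted p = 0.0715) and without any 1 library other than silenced replicate 3 (up to 0.131). COL7A1, the target with the highest mean CPM, did not pass (log2 fold change 0.31, adjusted p = 0.115 by edgeR). It passed without silenced replicate 2 (0.46, adjusted p = 0.00448), among all genes with at least 1 count (adjusted p = 0.00389) and with the replicate number as a block (adjusted p = 0.0387), and it was at 0.21 without silenced replicate 1 (adjusted p = 0.357). Many of these genes also respond to other signals. Of 7 tested BMP targets, 0 passed in either direction by edgeR, and 1 (ID1) had an unadjusted p under 0.05. ID1, with the highest mean CPM of them, was at 164, 143 and 139 CPM in control and 117, 84.8 and 147 CPM in silenced libraries, with silenced replicate 3 inside the control range. Its log2 fold change was -0.35 (adjusted p = 0.152 by edgeR), and without silenced replicate 3 it was -0.56 with an adjusted p of 0.0235. It was -0.17 without silenced replicate 2 (adjusted p = 0.364) and -0.27 without control replicate 1 (adjusted p = 0.339), while among all genes with at least 1 count the adjusted p was 7.88e-04. Whether the counts of the TGF-beta and BMP lists differ from each other was not tested.

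**Figure D5:**
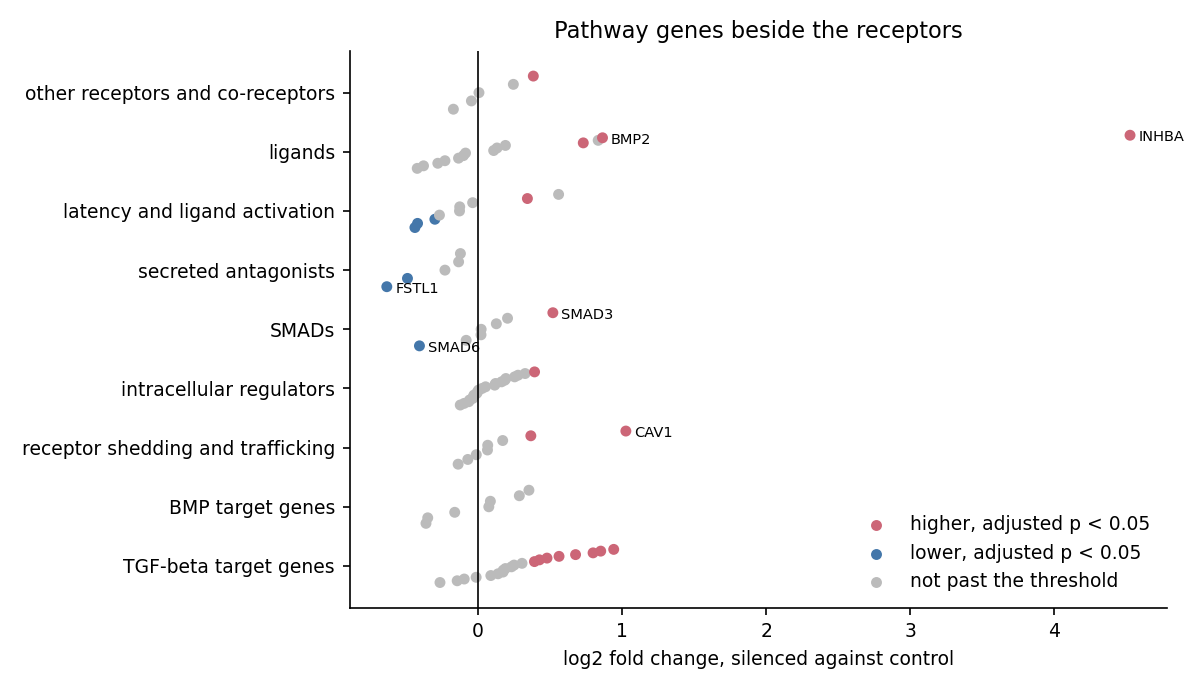
Log2 fold change (silenced against control) of the 96 tested genes of 9 lists around the receptors, 1 point per gene; red points rose and blue points fell with an adjusted p under 0.05 by edgeR, and gray points did not pass. The TGF-beta targets have 8 red and 0 blue points, and the BMP targets have only gray points. INHBA, which passed the filter on low counts only through its silenced libraries, lies farthest to the right at 4.53.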

How the data were processed

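RNA-Seq was done on 3 control and 3 FAM83H-AS1-silenced A549 libraries. The authors mapped Ion Proton reads with MapSplice and counted them per gene. The deposited values are raw counts without normalization, and the processing notes of the submitters name GRCh37. Annotation, strand and treatment of reads with several matches are not given in the sources used here.

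Counts were analyzed with edgeR 4.0.16 in R 4.3.3 (filterByExpr, TMM, quasi-likelihood F test, Benjamini-Hochberg adjustment over 15250 genes). The standard error of a log2 fold change was derived from its size and the F statistic. CPM are counts relative to the TMM-normalized library size. Totals ran from 9738291 to 17742643 counts, which limits ACVRL1, ACVR2A and INHBA, and replicates differed by more than counting noise (chi-square per degree of freedom from 4.18 to 29.2). The fit was tested on simulated data first. Gene locations, exon lengths and 3′-UTRs come from GENCODE 29 on GRCh38 and were matched by symbol. The files hold no coordinates, so no positions were combined across builds. For the levels per kilobase, counts made on GRCh37 were divided by exon lengths from GENCODE 29 on GRCh38.

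The receptors, the lists and the word CCAATAA were chosen with earlier results of these data known, and the siRNA words after the data had been seen. Named were all receptors, up to 6 genes per list with an adjusted p under 0.05 by size of change, the gene of each list with the highest mean CPM, and 5 genes most like ENG; SMAD7 was added after its values had been seen. Of these, 2 genes are not reported here. Alternatives were RLE factors, library size only, DESeq2 1.42.0, other filters, the replicate block and each library left out. Fold changes of the authors in their supplementary tables were not used.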

Additional observations from a re-analysis of the deposited data

How the results depend on the processing

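The log2 fold changes of the 10 receptors moved by less than the SD between replicates in each of 12 alternatives, and BMPR1A changed sign in 2 of them. Leaving out 1 library can shift a group mean by only part of that SD. For those alternatives the outcome was nearly fixed in advance, so it is no sign of stability. Among the 21 named pathway genes past the threshold, 12 passed in every alternative that gave a value, and INHBA had none where every library needed at least 10 counts. Genes past both criteria (326) numbered 583 among all with at least 1 count and 199 where every library had at least 10; these fits differ in the genes tested and in the estimated spread, and the cause was not tested. Leaving out 1 library gave 200 to 335. By adjusted p alone (2595 genes) the range was 1225 to 1962, and for the 23 pathway genes it was 13 to 21, each lowest without silenced replicate 1. GIPC1 turned from -0.0123 to 0.0219 with library size only and ranged from -0.0440 to 0.0364 with 1 library left out. With the replicate number as a block, 3449 genes in all and 26 pathway genes had an adjusted p under 0.05, and TGFBR3 and COL7A1 joined them. Samples of the same number correlated in their deviations at 0.217, 0.218 and 0.0353. Control replicates 1 and 2 each correlated best with the silenced library of the same number, but control replicate 3 with silenced replicate 2 (0.0476). The labels give only the number, and whether samples of the same number were handled together was not tested. Depth limits ACVRL1, ACVR2A, INHBA and ZEB2, whose counts were at most 76 in any library.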
